A study of Mus musculus with 24 samples.

Results

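The thymus of mice lacking p27 was compared with that of wild-type mice on 12 microarrays, 6 per genotype, out of 24 in the series. The p27 knockout mice lack Cdkn1b, the gene of p27Kip1, and the wild-type mice carry neither knockout. All were C57BL/6 mice of 15 weeks with no treatment named, with 3 females and 3 males per genotype, and each array holds 1 mouse. The other 12 arrays, from thymuses of stathmin knockout and double (p27 and stathmin) knockout mice, entered the estimate of the spread and served as a separate pair of groups that also differ in p27. The labels do not give which part of Cdkn1b the knockout removes, in which strain the allele was made, or whether it is missing in every cell. The series title names the control of cell proliferation by p27 and stathmin in the animal as its subject. Every array carried thymus RNA in Cy5 and 1 common pool of fibroblast RNA from all genotypes in Cy3, so each log2 ratio sets the thymus against that pool, and a log2 difference is p27 knockout minus wild type.

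p27Kip1 binds cyclin-dependent kinase complexes and holds them inactive, which keeps cells from passing from G1 into DNA synthesis. It is removed through the Skp2 ubiquitin ligase when cells enter the cycle. In the thymus most cells are immature T cells, which divide in bursts and then rest. Cdkn1b lies on mouse chromosome 6, on the same arm as the natural killer gene complex, a cluster of genes for lectin-like receptors. Among these are the Klra genes, which encode the Ly49 receptors by which natural killer cells read class I molecules, and the number of Klra genes differs between inbred mouse strains.

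The p27 knockout arrays were dimmer in Cy5. The 99th percentile of the Cy5 signal was 86.4 ± 53.2 kilo-units (SD, n = 6) against 190.6 ± 92.0 in wild type, a difference with a 2-sided exact permutation p of 0.0455, where 0.00216 is the smallest possible. Replicates 5 and 6 of the p27 knockout were the dimmest, at 50.7 and 19.4 kilo-units, and wild-type replicate 4 stood at 56.3. Leaving out 1 array moved the exact p between 0.013 and 0.0887, and it was above 0.05 without 8 of the 12 arrays. The p27 knockout arrays nonetheless had a larger mean share well above background in Cy5, 83.7% against 75.0% (exact permutation p = 0.0541). Their log2 ratios had a wider interquartile range, 1.63 against 1.30 (exact permutation p = 0.00649). The 99th percentile of Cy3 was higher, 190.6 against 149.7 kilo-units (exact permutation p = 0.0195). Counts of arrays well above background for single genes below were not adjusted for this. The log2 ratios of p27 knockout replicate 6 correlated across genes by 0.204 on average with the other arrays and those of replicate 5 by 0.587, so results that rest on them are also given without both. Each of 6 slides held 1 array of either genotype, wild type always at position 1 and p27 knockout at position 2, so position on the slide and genotype cannot be told apart. Ddx3y, a Y-linked gene, read between -7.91 and -6.46 on 3 wild-type arrays and between -6.16 and -3.42 on 3 p27 knockout arrays, replicates 5 and 6 among them, and above 0 on the others. Leaving out these dim arrays therefore also leaves 1 of 4 p27 knockout mice without a Y-linked signal against 3 of 6 wild-type mice.

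The label was checked in thymocyte genes, which stood far above the fibroblast pool on every array but one. Over 14 genes of double-positive thymocytes the median log2 ratio lay between 3.89 and 5.33 on wild-type arrays and between 4.64 and 5.40 on 5 p27 knockout arrays. On p27 knockout replicate 6 it was 0.28.

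**Figure D1:**
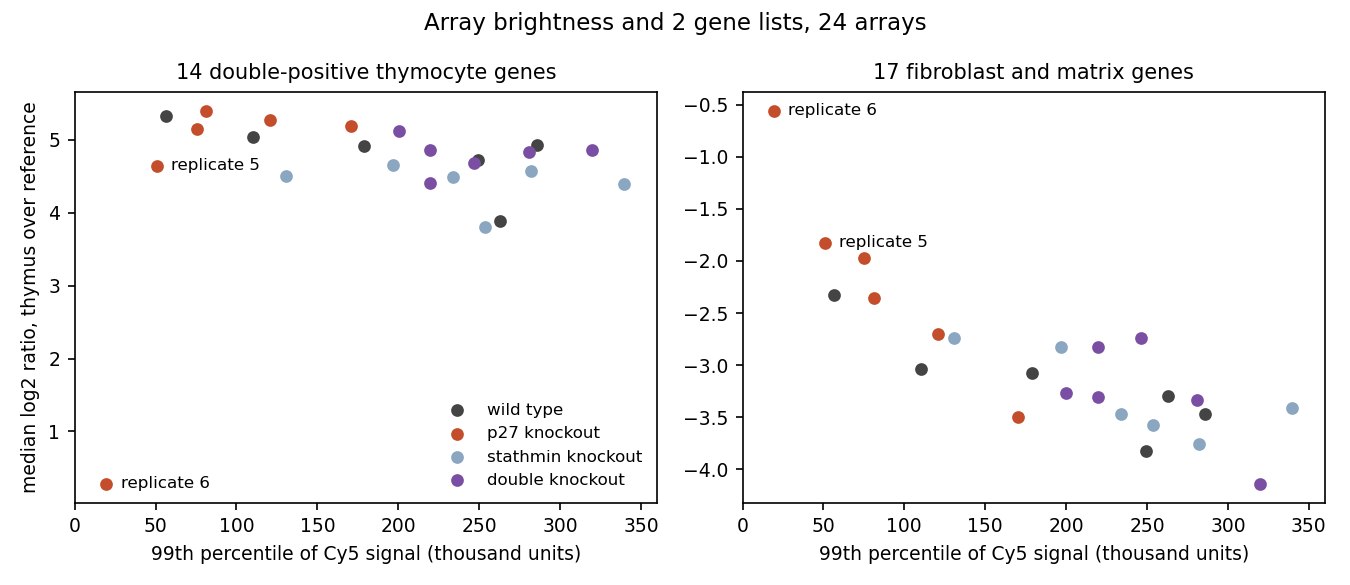
Median log2 ratio of thymus over the fibroblast pool, for 14 double-positive thymocyte genes (left) and 17 fibroblast and matrix genes (right), against the 99th percentile of Cy5 in kilo-units, 1 point per array and 24 arrays in 4 colours by genotype. p27 knockout replicate 6 is the dimmest at 19.4 and reads 0.28 for the thymocyte genes, while the fibroblast genes read -0.56 there and between -3.82 and -2.32 on wild-type arrays.

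Cdkn1b read lower in the p27 knockout on its brighter probes, without passing the test across all probes. On probe A_51_P146126 the log2 ratio (lowest, median and highest) was 1.37, 1.85 and 2.19 in 5 wild-type mice, the spot of replicate 1 being left out as an outlier, and -0.66, 0.37 and 0.98 in 6 p27 knockout mice. The groups did not overlap, and the difference was -1.50 ± 0.34 (SE; limma adjusted p over all probes = 0.0790; exact permutation p = 0.00433, with 5 against 6). This probe was well above background on 6 of 6 p27 knockout arrays, so a signal was read there in mice labelled as lacking the gene. It is annotated to a cDNA clone, whereas the other Cdkn1b probes, given next, are annotated to the RefSeq transcript of the gene.

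A second probe, A_51_P169173, printed on 10 spots, read -0.21, 0.28 and 0.85 in wild type and -1.03, -0.80 and -0.42 in the p27 knockout. It was well above background on 6 of 6 wild-type arrays and on 1 of 6 p27 knockout arrays, so its level in the knockout is limited by background. Here too the groups did not overlap, with a measured difference of -1.06 ± 0.24 (SE; limma adjusted p = 0.0790, exact permutation p = 0.00216). The third probe, A_52_P673863, was well above background on 3 of 6 wild-type and 4 of 6 p27 knockout arrays. It differed by -0.49 ± 0.22 (SE; limma adjusted p = 0.149, exact permutation p = 0.0108), and its groups overlapped. Whether any of the 3 lies in the deleted part was not tested, since the deleted part is not given, so the probes check the labels only by their level.

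**Figure D2:**
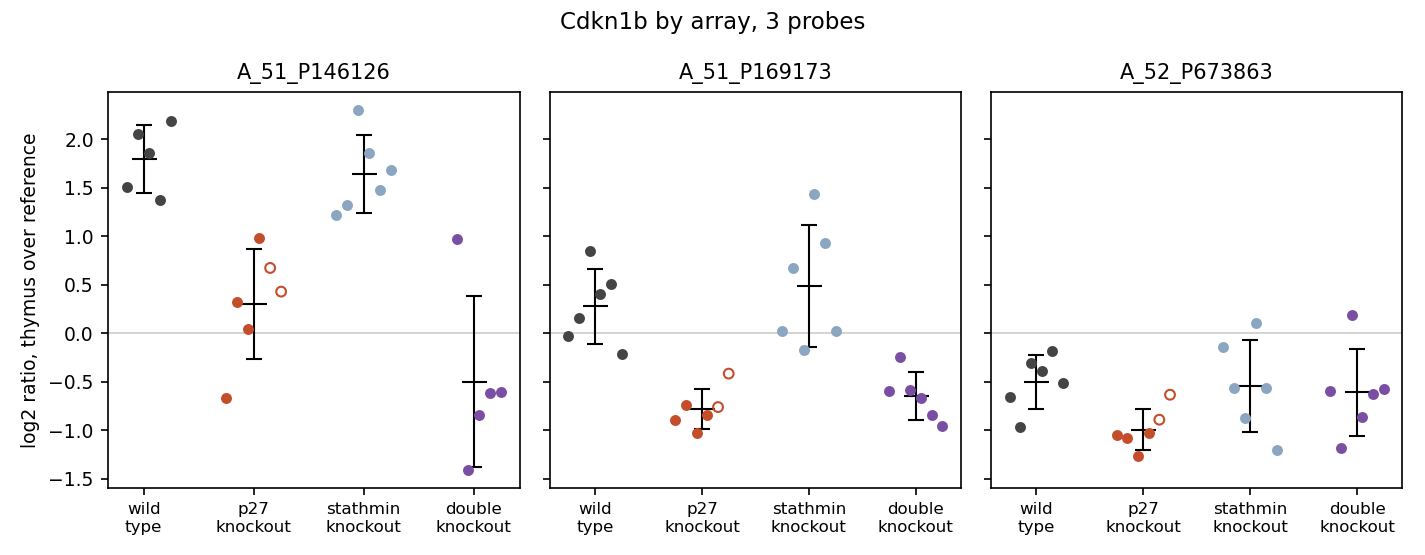
Log2 ratio of Cdkn1b over the reference by array on 3 probes in 4 genotypes, with the mean and SD as black bars and p27 knockout replicates 5 and 6 as open circles. On the left and middle probes all p27 knockout arrays lie below all wild-type arrays, and the double knockout lies below the stathmin knockout on both.

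Of 24784 genes tested, 2 passed a limma adjusted p of 0.05 (0.00807%), both lower in the p27 knockout and both Ly49 receptor genes that lie close together on chromosome 6. Klra9, which encodes Ly49I, read 2.80, 3.56 and 4.35 in wild type and 0.51, 0.84 and 1.44 in the p27 knockout. Klra9 fell by 2.63 ± 0.41 (SE) on the log2 scale, 6.18-fold (limma adjusted p = 0.0310). All 6 knockout mice lay below all 6 wild-type mice, and on each slide the knockout array was lower, by between 1.52 and 3.59.

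Klra10, which encodes Ly49J, read 2.27, 3.39 and 3.94 in wild type and 0.03, 0.53 and 1.20 in the p27 knockout. It fell by 2.82 ± 0.46 (SE), 7.08-fold (limma adjusted p = 0.0310), again lower on 6 of 6 slides. Without the dim arrays the differences were about as large, -2.58 and -2.73, with limma adjusted p = 0.0947 and 0.130. A fit that added slide as a block gave 0.0641 for both genes. Leaving out p27 knockout replicate 3 or wild-type replicate 1, 2, 3 or 5 also left both above 0.05, the highest adjusted p being 0.148, and Klra10 did not pass without p27 knockout replicate 5 either. Without p27 knockout replicate 1, 2 or 4 or wild-type replicate 6 the count of genes that passed was 2564, 1649, 2831 or 2422, while 7181 genes (29%) had an unadjusted p under 0.05 with all arrays.

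The 300-base windows around the starts of these genes and of their neighbour Klra8 (250 bases before to 50 after the start, RefSeq, build GRCm38.p6, minus strand of chromosome 6, 5′ to 3′) are shown because the 3 genes lie within a few genes of each other and read lower together. Klra7, which lies between Klra9 and Klra10 in the measured gene order, did not read lower (0.10). Capitals mark the longest run that the Klra8 and Klra9 windows share.
Klra8 (chr6:130129849-130130148): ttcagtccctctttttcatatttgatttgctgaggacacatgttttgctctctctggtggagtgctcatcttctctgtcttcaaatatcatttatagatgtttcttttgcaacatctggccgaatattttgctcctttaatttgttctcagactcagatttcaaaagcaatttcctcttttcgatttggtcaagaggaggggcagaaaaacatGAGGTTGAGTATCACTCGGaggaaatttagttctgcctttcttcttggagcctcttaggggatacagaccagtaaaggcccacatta
Klra9 (chr6:130193063-130193362): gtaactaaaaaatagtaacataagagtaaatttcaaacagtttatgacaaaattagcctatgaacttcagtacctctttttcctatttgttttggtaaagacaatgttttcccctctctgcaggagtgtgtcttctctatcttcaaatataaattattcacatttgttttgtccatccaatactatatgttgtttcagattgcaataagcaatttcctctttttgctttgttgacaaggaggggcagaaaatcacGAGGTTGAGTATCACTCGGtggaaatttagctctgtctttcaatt
Klra10 (chr6:130281879-130282178): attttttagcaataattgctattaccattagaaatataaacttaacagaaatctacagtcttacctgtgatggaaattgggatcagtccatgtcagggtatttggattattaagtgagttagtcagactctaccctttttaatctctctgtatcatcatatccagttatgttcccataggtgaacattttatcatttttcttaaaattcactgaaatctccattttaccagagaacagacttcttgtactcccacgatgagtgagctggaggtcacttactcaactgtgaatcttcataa
The Klra8 and Klra9 windows aligned locally over 255 columns with 76.1% identical bases, and the shared run GAGGTTGAGTATCACTCGG (19 bases, either strand) stood in 5 of 32851 windows of the table (0.0152%), those of Klra6, Klra8, Klra9 and Gm52487. The Klra10 window aligned with that of Klra9 over 36 columns only. Whether the annotated starts mark the same part of each gene was not tested, so unlike parts may be compared here. Klra genes are close copies of each other, so a probe of one may also read another, and values of single Klra genes are uncertain to that extent. The array files used here hold no probe sequences, so this was not tested.

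Klra8, which encodes Ly49H, a receptor for a cytomegalovirus protein, followed the pair in all p27 knockout mice but one. It read 2.54, 2.86 and 3.28 in wild type and 0.24, 0.68 and 3.61 in the p27 knockout, where the highest value is that of the dim replicate 5. The difference was -1.82 ± 0.44 (SE; limma adjusted p = 0.0811). Many genes share this adjusted p, since the adjustment gives tied values. Gpr19 and Slco1a4, for example, have it with unadjusted limma p of 5.5e-05 and 0.00427. Wherever 0.0811 is printed it does not rank the genes, and 0.0790 over all probes is tied in the same way. Without replicates 5 and 6, Klra8 fell by 2.23 ± 0.33 and passed (limma adjusted p = 0.0253).

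Of 22 Ly49 receptor genes listed, 18 were measured. Of these, 2 passed, both lower, 11 had an unadjusted p under 0.05, against 29% of all genes, and 6 had groups that did not overlap, 2 higher and 4 lower, against 0.629% of all genes (156), 0.412% higher and 0.218% lower. The median difference over the 18 was -0.32, against 0.14 over all genes, and it was also -0.32 without the dim arrays. Besides Klra9 and Klra10, the p27 knockout lay wholly below wild type in Klra23 (-2.04 ± 0.38, SE) and Klra21 (-1.85 ± 0.40), both with adjusted p above 0.07 in limma's test. Klra21 and Klra23 had no position in the gene order used here, and whether these mice carry them was not tested.

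Not all members of the family read lower. Klra15, which encodes Ly49O, read -1.84, -1.40 and -0.61 in wild type and -0.22, 0.43 and 3.15 in the p27 knockout. That difference was 2.11 ± 0.46 (SE; limma adjusted p = 0.0811), and 1.51 without replicates 5 and 6, of which replicate 6 gave the highest value. Klra18 also stood wholly above wild type, with a difference of 1.95 ± 0.65, and 0.98 without those arrays. Klra16, which encodes Ly49P, overlapped through the dim replicate 6 (1.32 ± 0.44) and stood wholly above wild type without the dim arrays (1.77). Klra5, Klra7, Klra12 and Klra17 differed by -0.22, 0.10, -0.02 and -0.03. Klra12, Klra15, Klra16 and Klra18 were not among the measured genes placed within 100 positions of Cdkn1b, and whether these mice carry them was not tested. The members of the family thus read lower, higher or near 0, and no single shift describes it.

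Among other lectin-like receptors of the cluster, 20 of 22 listed genes were measured and none passed, with a median of -0.33. In 2 the groups did not overlap, both lower in the p27 knockout, against 0.629% of all genes, 0.218% lower. Klrc1, which encodes NKG2A, the inhibitory partner of CD94, read 3.09, 4.14 and 4.67 in wild type and 0.04, 1.37 and 2.60 in the p27 knockout, a difference of -2.71 ± 0.49 (SE; limma adjusted p = 0.0672). Another Klrc1 probe, A_52_P149637, gave -0.62. Klrb1a, an NKR-P1 receptor gene, differed by -1.48 ± 0.33 (limma adjusted p = 0.0811). Klrd1, the gene of CD94, and Klrk1, the gene of NKG2D, overlapped between the groups, at -0.83 ± 0.66 and -0.07 ± 0.35, and at 0.09 and 0.10 without the dim arrays.

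Of 11 measured genes of natural killer and cytotoxic cells outside the cluster, none had an unadjusted p under 0.05, against 29% of all genes, and the median was -0.03, or -0.05 without the dim arrays. Gzma and Gzmb, granule proteases, differed by -0.67 ± 0.73 and -0.68 ± 0.39 with all arrays, and by 0.43 and -0.08 without the dim ones. Prf1, the gene of perforin, differed by -0.66 ± 0.35 and by -0.35 without them. Il2rb, an interleukin receptor chain, differed by 0.04 ± 0.59, and Tbx21, a transcription factor of these cells, by 0.51 ± 0.53. The difference between these genes and those of the cluster was not tested. In bulk tissue, fewer cells of a type and less RNA per cell cannot be told apart, and this holds for every cell type list below.

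**Figure D3:**
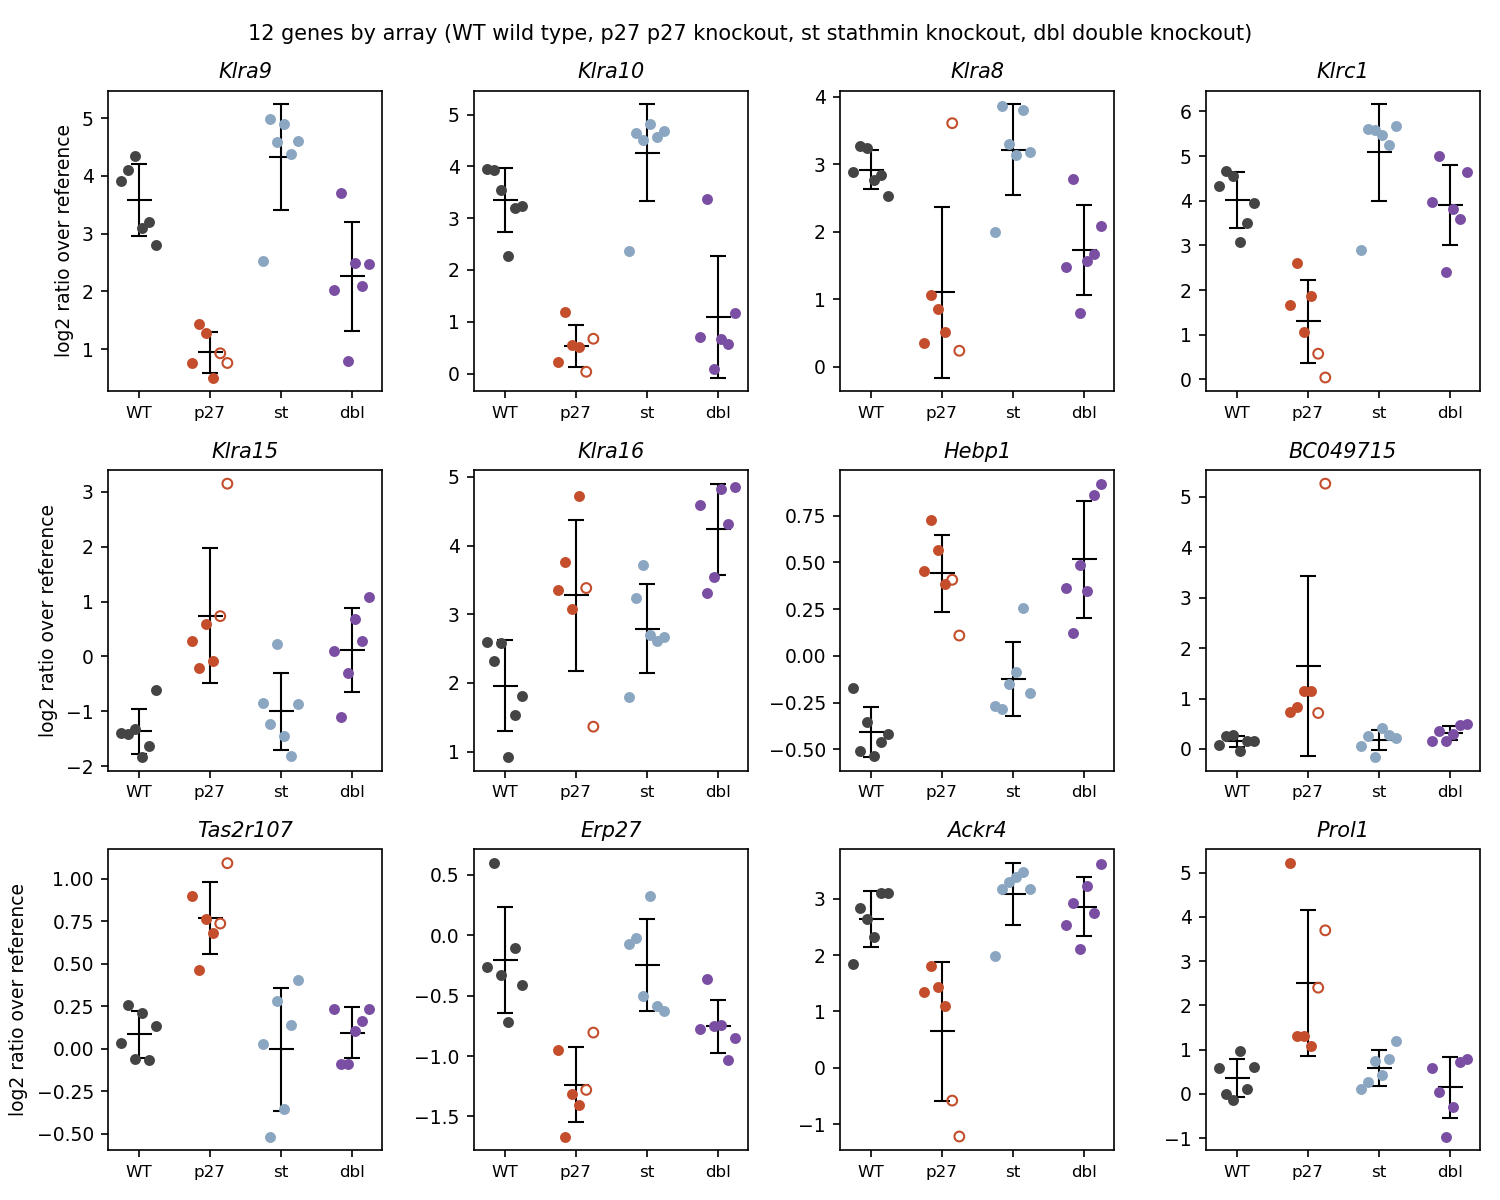
Log2 ratio over the reference by array for 12 genes in the 4 genotypes, with the mean and SD as black bars and p27 knockout replicates 5 and 6 as open circles. Klra9 and Klra10 separate p27 knockout from wild type fully, Klra8 does so but for replicate 5 at 3.61, and Klra15 and Hebp1 stand higher in the p27 knockout.

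Genes that separated the genotypes were frequent near Cdkn1b, in both directions. Of 60 measured genes within 30 positions of Cdkn1b in the gene order of chromosome 6, the groups did not overlap in 7 (11.7%), 3 higher and 4 lower, against 0.629% of all genes, 0.684% of the rest of chromosome 6 beyond 100 genes and 0.534% of genes on other chromosomes. An unadjusted p under 0.05 was reached by 27 of the 60 (45%), against 29% of all genes. Of the 10 genes with the lowest p, 7 lay within 100 measured genes of Cdkn1b and 8 on chromosome 6. Neighbouring genes are not independent, and these shares were not tested.

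Hebp1, a heme-binding protein gene 4 measured genes from Cdkn1b, stood higher in the knockout. It read -0.54, -0.44 and -0.17 in wild type and 0.11, 0.43 and 0.73 in the p27 knockout, a difference of 0.85 ± 0.16 (SE; limma adjusted p = 0.0672). Without the dim arrays Hebp1 rose by 0.94 ± 0.16 and passed (limma adjusted p = 0.0321). Emp1, an epithelial membrane protein gene 8 genes away that was singled out after its values were seen, differed by 1.19 ± 0.21 (limma adjusted p = 0.0672).

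BC049715, 17 genes from Cdkn1b, read -0.04, 0.16 and 0.29 in wild type and 0.71, 0.99 and 5.26 in the p27 knockout, the highest again in replicate 6. Without the dim arrays BC049715 rose by 0.82 ± 0.13 (limma adjusted p = 0.0321). Erp27, a gene of an endoplasmic reticulum protein 20 genes away, read -0.72, -0.30 and 0.60 in wild type and -1.67, -1.30 and -0.81 in the knockout, a difference of -1.03 ± 0.21 (limma adjusted p = 0.0811). Tas2r107, a bitter taste receptor gene 17 genes away on the other side, differed by 0.69 ± 0.16, and was well above background on 1 of 6 wild-type arrays and 6 of 6 p27 knockout arrays. Atf7ip, 11 genes away and also chosen after its values were seen, was the other of the 7, at -0.82 ± 0.24. The 7 are thus a Ly49 pair and 5 genes with no role in common in the lists used.

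**Figure D4:**
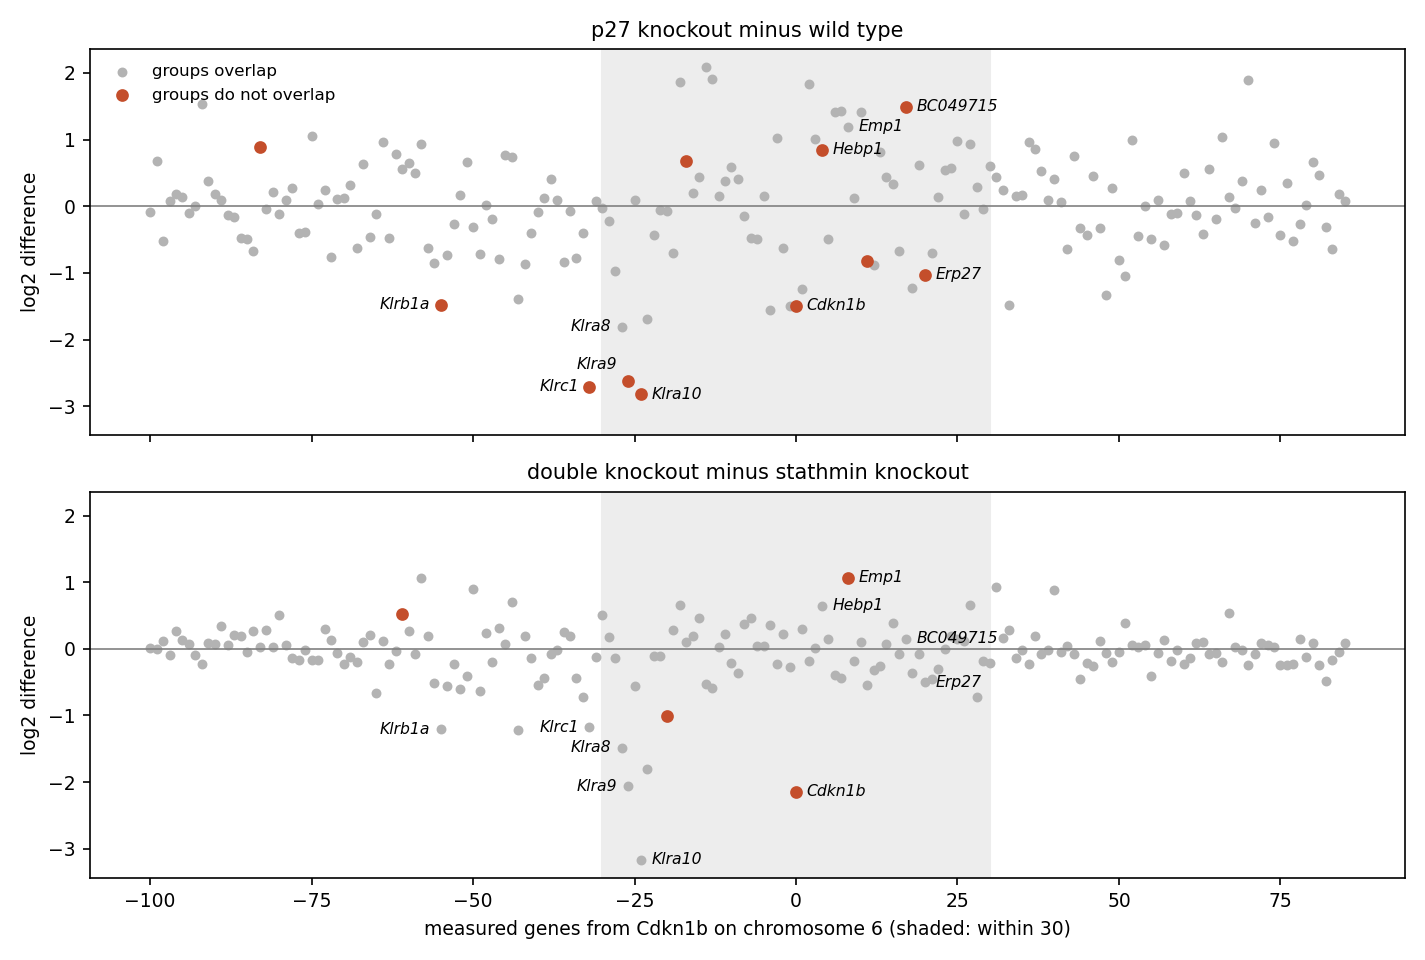
Log2 difference of each measured gene within 100 positions of Cdkn1b on chromosome 6, by its place in the gene order, for p27 knockout minus wild type (top) and double minus stathmin knockout (bottom). Red points are genes whose 6 arrays per genotype do not overlap, and the shading covers 30 genes to either side, which holds 7 such genes besides Cdkn1b in the top panel and 2 in the bottom one.

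The genes that passed under other settings mostly came from the same places. In 15 settings, the one used here included, between 1 and 10 genes passed, and every such gene but 1 was a lectin-like receptor of the cluster or lay within 100 measured genes of Cdkn1b. Without p27 knockout replicates 5 and 6, 4 genes passed (0.0161%): Klra8, Hebp1 and BC049715, described above, and AK050066, a cDNA clone with no position here. AK050066 was not well above background on any wild-type array and was on 6 of 6 p27 knockout arrays. Its signal there was 2.46-fold that of the dimmest probe well above background. The measured log2 difference was 1.30 with all arrays, and between 0.99 and 2.68 over the other settings, so the size is uncertain. The groups did not overlap in 352 genes (1.42%) without those arrays. With slide as a random block 5 genes passed, Klra9, Klra10, Klrc1, Hebp1 and Emp1. Without background correction 9 passed, 7 of them lectin-like receptors, and from the Cy5 channel alone 7 passed, all of them lectin-like receptors. Larger counts came from the fits without an array named above, the weighted fits described below and the authors' deposited table, which follows the mean brightness of both channels (4324 genes).

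Away from chromosome 6, none of the genes with the lowest p among those that separated the groups passed, and 3 of the 6 described here were well above background on only 3 of 6 wild-type arrays. Ackr4, a scavenging chemokine receptor of thymic stroma, read 1.84, 2.74 and 3.10 in wild type and -1.22, 1.22 and 1.81 in the p27 knockout, a difference of -1.99 ± 0.42 (SE; limma adjusted p = 0.0811). Its lowest values are those of replicates 5 and 6, and without them the difference was -1.21. Prol1 read -0.13, 0.35 and 0.96 in wild type and 1.07, 1.86 and 5.21 in the p27 knockout, a difference of 2.14 ± 0.51. Prol1 was 1 of these 3, with the defensin gene Defb7 (0.81 ± 0.19) and the olfactory receptor gene Olfr586 (0.66 ± 0.17). Defa23, another defensin gene, and Olfr689 were well above background on 5 of 6, with differences of 1.22 ± 0.28 and 0.81 ± 0.20, and of 0.73 and 0.80 without the dim arrays. A second Olfr586 probe gave 0.06.

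The other inhibitors of cyclin-dependent kinases read higher in part, without passing. Of 7 measured, none passed, 5 had an unadjusted p under 0.05, Cdkn1b itself among them, against 29% of all genes, and the median was 1.05, or 0.53 without the dim arrays. Cdkn1a (p21), a p53 target, differed by 1.05 ± 0.34 (SE) and by 0.53 without the dim arrays. Cdkn1c (p57) differed by 1.29 and 0.59, Cdkn2a (p16 and p19Arf) by 1.47 and 0.70, and Cdkn2b (p15) by 1.46 and 0.71. These 4 stood far below the fibroblast pool, with wild-type means between -3.88 and -2.84. Cdkn2c (p18) and Cdkn2d (p19), which stood above the pool, differed by -0.11 ± 0.32 and 0.06 ± 0.48, and by 0.37 and 0.47 without the dim arrays.

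Genes that p27 restrains or that act with it showed no common difference. Of 12 G1 cyclins and kinases none passed, 3 had an unadjusted p under 0.05 (25%, against 29% of all genes), and the median was -0.04. Cdk2, the kinase that p27 inhibits together with cyclin E, differed by -1.26 ± 0.54 (SE), and Ccne1, the gene of cyclin E1, by 0.68 ± 0.19, or 0.42 without the dim arrays. Ccnd3, the D cyclin of thymocytes, differed by -0.85 ± 0.38, and by -0.20 without the dim arrays. Of 14 genes of p27 degradation and control none passed (median -0.09), and Skp2, the ubiquitin ligase subunit that recognises p27, differed by -0.04 ± 0.26.

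In genes of the dividing cell, the list medians for DNA replication and for G2 and mitosis changed sign without the dim arrays. The median was -0.12 over 33 DNA replication genes, -0.11 over 25 genes of G2 and mitosis and 0.01 over 16 E2F and pocket protein genes. Without replicates 5 and 6 these medians were 0.28, 0.26 and 0.30, against 0.12 for all genes. On replicate 6 alone they stood at -0.62, -0.57 and -0.30, against 1.16 to 1.44, 1.38 to 1.61 and 1.21 to 1.69 on p27 knockout replicates 1 to 4. No member passed with or without the dim arrays. Mki67, a marker of cycling cells, differed by -0.30 ± 0.42 and by 0.34 without them, Pcna, the sliding clamp of replication, by -0.96 ± 0.34 and -0.44, and Foxm1, a mitotic transcription factor, by 0.65 ± 0.20 and 0.65. Foxm1 lies 60 measured genes from Cdkn1b on chromosome 6. Of 19 p53 targets none passed, and the median was 0.16 with all arrays and 0.19 without the dim ones.

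Thymus cell types followed the same split. Medians with all arrays and without replicates 5 and 6 were -0.35 and 0.32 over 14 early thymocyte genes, -0.32 and 0.49 over 14 double-positive genes and -0.30 and 0.48 over 16 genes of the T cell receptor complex and its signalling. For cortical epithelium (12 genes) they were -0.31 and 0.39, and for mature and regulatory T cells (16 genes) -0.26 and 0.16. Without replicate 6 alone these 5 medians were 0.18, 0.59, 0.53, 0.49 and 0.22 in the same order, and leaving out any other single array changed none of their signs. The sign of each thus rests on that 1 array, and no member passed with all arrays or without replicates 5 and 6. Rag1, a recombinase gene of double-positive cells, differed by -0.44 ± 0.95 (SE) and by 0.74 without them. Cd4 differed by -1.59 ± 0.76 and by 0.09. B cell genes (11) had medians of -0.76 and -0.36, and macrophage and dendritic cell genes (16) of -0.31 and -0.17.

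Lists of matrix and fat kept their sign. All 17 fibroblast and matrix genes read higher in the p27 knockout (median 1.08), where 14859 of all 24784 genes did. The list median was higher in the knockout on 4 of 6 slides. The count was 15 of 17 without the dim arrays (median 0.56), and no member passed or had groups that were apart. Fn1, the gene of fibronectin, differed by 1.36 ± 0.43 (SE) and by 0.70 without them. The highest list median of wild type, -2.32, was that of its dimmest array, replicate 4, and the highest of the p27 knockout, -0.56, was that of replicate 6. All 15 adipocyte genes read lower (median -0.91), on 6 of 6 slides as a list, and 14 of 15 without the dim arrays (median -0.47), again with none past the test. Scd1, a desaturase of fat synthesis, read lower by the most, at -2.11 ± 0.63 and -1.67, and Adipoq, the gene of adiponectin, differed by -0.86 ± 0.69 and -0.07. The part of brightness in these differences was not tested.

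**Figure D5:**
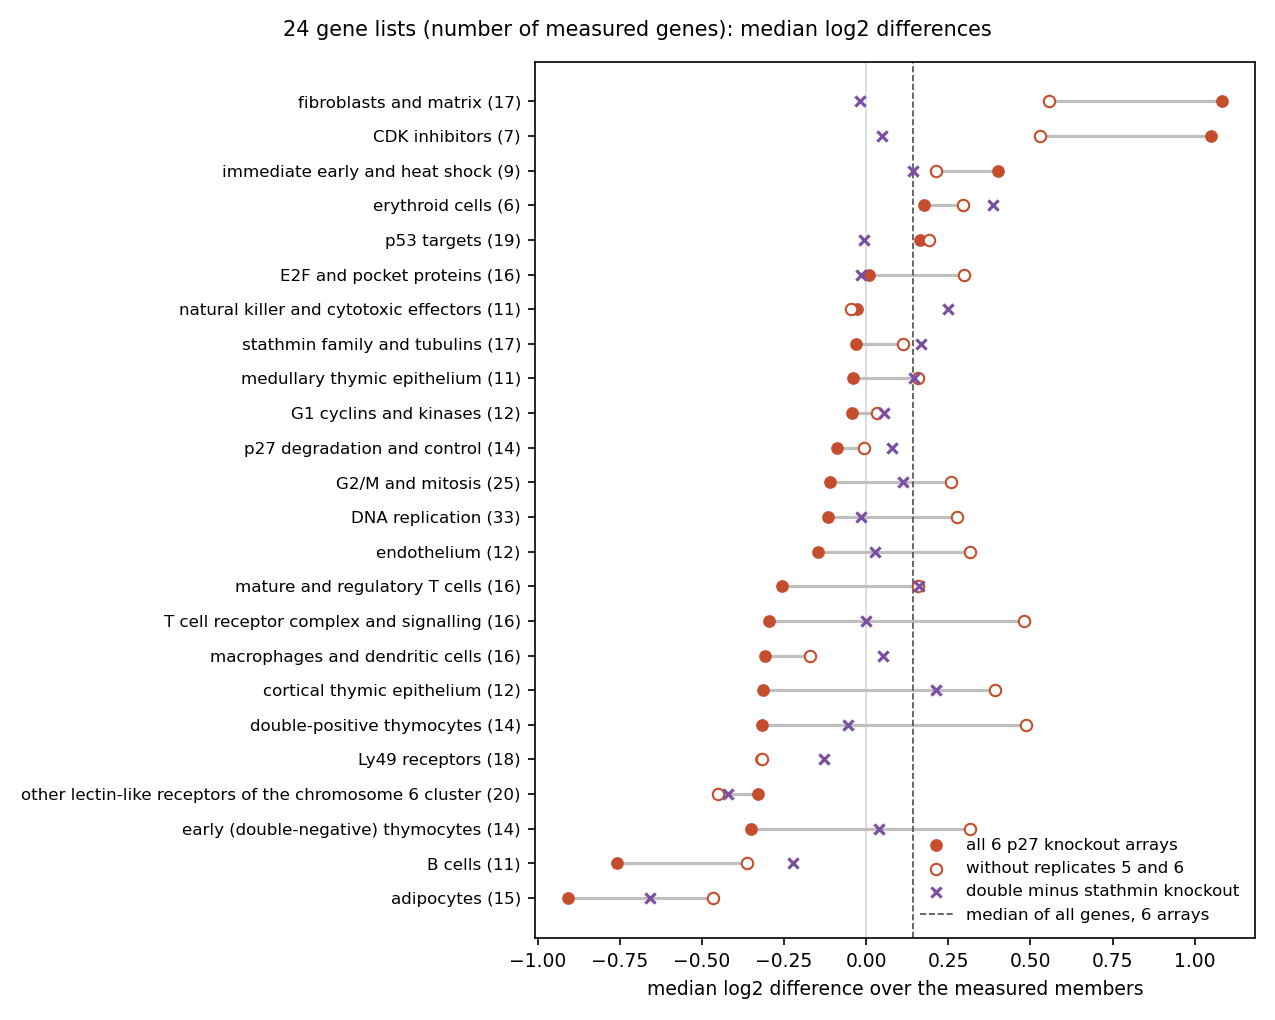
Median log2 difference over the measured members of 24 gene lists, for p27 knockout minus wild type with all 6 arrays (filled) and without replicates 5 and 6 (open), and for double minus stathmin knockout (crosses), with the median of all genes, 0.14, dashed. Thymocyte, replication and cortical epithelium lists cross 0 between filled and open points, while fibroblast and adipocyte lists keep their sign.

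When arrays were weighted by their fit to their group, many more genes passed. p27 knockout replicates 5 and 6 then had weights of 0.165 and 0.0475, against 0.745 to 2.18 for replicates 1 to 4, and 2284 genes passed (9.22%), 1880 higher (7.59%) and 404 lower (1.63%). Within 30 genes of Cdkn1b 19 of 60 (31.7%) passed. Of the Ly49 receptors 10 of 18 did, 3 higher (Klra15, Klra16 and Klra18) and 7 lower. Of the 7 kinase inhibitors Cdkn1b fell, by 1.60 (limma adjusted p = 0.0307), and Cdkn1a, Cdkn1c, Cdkn2a and Cdkn2b rose. In T cell receptor genes 5 of 16 rose (Cd3d, Cd247, Lat and Prkcq among them), in double-positive genes 3 of 14 (Cd8a, Cd8b1 and Ccr9), and in fibroblast genes 6 of 17. In DNA replication genes 2 of 33 and in G2 and mitosis genes 3 of 25 (Plk1, Aurka and Foxm1) rose, shares of 6.06% and 12%, and none of the 15 adipocyte or 11 natural killer effector genes passed. The weights were estimated from these same arrays, and with slide as a block as well 6619 genes passed.

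The double knockout against the stathmin knockout gave a second comparison of mice without and with p27, on 12 other arrays that share the slides, the reference pool and the estimate of the spread. The stathmin knockout was always at position 3 and the double knockout at position 4, so here too position and genotype cannot be told apart. Across all 24784 genes, which are not independent, the differences of both comparisons had a Pearson correlation of -0.28 and the same sign in 38.4% of genes, or -0.18 and 39.7% without the dim arrays. In it 2 genes passed (0.00807%), Klra10 and Cdkn1b, both lower. Klra10 read 2.37, 4.60 and 4.82 in the stathmin knockout and 0.09, 0.68 and 3.37 in the double knockout, where it fell by 3.17 ± 0.46 (SE; limma adjusted p = 0.0102). Klra10 was well above background on 3 of 6 double knockout arrays, so this difference is limited by background in that group. On probe A_51_P146126 Cdkn1b read 1.21, 1.58 and 2.30 and, in 5 mice, -1.41, -0.62 and 0.97, and fell by 2.14 ± 0.34 (limma adjusted p = 0.0341). Its probe A_51_P169173, well above background on 0 of 6 double knockout arrays, differed by a measured -1.14 (limma adjusted p over all probes = 0.562). Its probe A_52_P673863 differed by -0.07. With slide as a fixed block Klra10 still passed (limma adjusted p = 0.042) and Cdkn1b, at -2.12, did not (limma adjusted p = 1.00). The groups did not overlap in 30 genes (0.121%), and Cdkn1b was the only gene apart in the same direction in both comparisons.

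Klra9 read 2.52, 4.59 and 4.98 in the stathmin knockout and 0.79, 2.28 and 3.71 in the double knockout, a difference of -2.06 ± 0.41 (SE; limma adjusted p = 0.267). Emp1 stood wholly higher in the double knockout, at 1.06 (limma adjusted p = 0.267), and Klra16 differed by 1.45, Klra8 by -1.49, Klrb1a by -1.21 and Klrc1 by -1.18, none past the test. Hebp1 differed by 0.64 ± 0.16 and BC049715 by 0.14 ± 0.49. Of the genes that had separated the first pair away from chromosome 6, none separated the second, with Prol1 at -0.44, Defb7 at -0.18, Olfr689 at 0.10 and Ackr4 at -0.22. For no named gene did the difference between these comparisons pass (interaction adjusted p = 0.262 or above in limma's test). Adipocyte genes had a median of -0.66 in this comparison, fibroblast genes of -0.02 and double-positive thymocyte genes of -0.06.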

How the data were processed

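Thymus RNA of 24 mice was read on 2-colour arrays, thymus in Cy5 and a fibroblast pool in Cy3, with no dye swap. The deposited intensity values came from Agilent's Feature Extraction software, version 9.1.3.1, and the deposited log10 ratios had been detrended and dye-normalized by it, both per the file headers. The deposited table of log2 values came from the authors by steps not given in the sources used here; its columns follow the mean log2 of both channels, its centring is unknown, and it served as an alternative. Spot types and outlier flags were those of the scanner software, per the file headers.

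With limma 3.58.1 in R 4.3.3 and the data.table package, version 1.17.8, background was corrected by normexp (offset 50), arrays were normalized by loess with control spots at no weight, outlier spots were left out, and spots of a probe were averaged. Probes well above background in Cy5 on at least 6 of 24 arrays were kept (35185 of 41174), and the brightest stood for each of 24784 genes. The accessions of 22951 probes took symbols from a gene table of assembly GRCm38.p6, which also gave the gene order, and 18223 kept the file's name. limma's moderated test used all 24 arrays, a single genotype term and p-values adjusted across genes by Benjamini-Hochberg (0.05), and a "limma adjusted p" is from that fit unless another is named. On simulated data of this comparison (24031 genes) it recovered 33% of log2 changes of 1 and 80% of changes of 2, with 6 false calls. The simulated noise was independent between genes and had the same spread on every array. It thus holds no dim arrays that move many genes together, and these figures do not cover that case. The number of arrays limits the precision. limma's p-values rest on the spread between arrays within all genotypes, in which differences between mice and between hybridizations cannot be told apart.

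Named were Cdkn1b, the genes that passed with or without p27 knockout replicates 5 and 6, the 8 lowest p each way among genes whose groups did not overlap (leaving out sex-linked and predicted names), and list members. Members, rules and the 24 lists were chosen with earlier results of these data known, so lists are given as counts and medians without tests. Members of a list have no p of their own. The 2.46-fold value of AK050066 compares the bright group on each array with the dimmest probe that was well above background, in single channels without dye swap. It is not a lower limit for the log2 difference. Alternatives were slide or replicate number as a block, only the 12 arrays, array weights, leaving out arrays, other background corrections, channels, scaling, filters and probe rules.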

Additional observations from a re-analysis of the deposited data

Results flagged for a closer look

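Within a group of 6 arrays, a value was noted where 1 array stood far from the other 5, which chance gives in about 1 of 20 groups. The rule was run only where all 6 arrays of a group had a value, which left out Cdkn1b in wild type. In both groups it was otherwise applied to Cy5 brightness, to the genes chosen with their values known, and to the medians of 24 lists. Some such values are therefore due to chance, and list medians of the same array are not independent. Of 12 such values 10 belong to p27 knockout replicate 6, the dimmest array. On it BC049715 read 5.26 (the next highest array 1.15), Klra15 read 3.15 (next 0.73) and Atf7ip read 0.095 (next 1.33). Its list medians stood apart in the same way for E2F and pocket proteins (-0.30, next 1.10), DNA replication (-0.62, next 1.16), G2 and mitosis (-0.57, next 1.04), early thymocytes (-0.25, next 2.20), double-positive thymocytes (0.28, next 4.64), T cell receptor genes (0.17, next 5.77) and cortical epithelium (-0.0048, next 4.17). On the dim p27 knockout replicate 5, Klra8 read 3.61, and the next highest array read 1.06. On wild-type replicate 4, Emp1 read -2.45, with the other 5 arrays between -3.72 and -3.25. No named gene was marked for a difference between the comparison with and the one without stathmin.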

How the results depend on the processing

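The count of genes that passed, 2 lower and 0 higher, moved with most settings. It was 0 with slide as a fixed block, 5 with slide as a random block (2 higher), 4 without p27 knockout replicates 5 and 6 (3 higher, 1 lower), 9 without background correction (2 higher, 7 lower), 7 lower from the Cy5 channel alone, 5 lower with scaling between arrays and 1 lower among genes well above background on all 12 arrays. It was 2284 with array weights (1880 higher, 404 lower), 6619 with weights and slide block (4895 higher, 1724 lower) and 4324 in the authors' deposited table (1 higher, 4323 lower). Leaving out 1 array gave 0 to 2831 genes, 0 to 2187 higher and 0 to 647 lower. With the replicate number as a block 2 genes passed, Klra9 and Klra10, but the numbers do not pair the mice, since the correlations of same-numbered arrays ranged from -0.55 to 0.28. Without the dim arrays, the 4 genes became 1 with slide as a block, 2 with a replicate block and 2 with only 10 arrays. Double minus stathmin knockout had 1 gene with slide as a block, Klra10.

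Cdkn1b passed over all probes with array weights (A_51_P146126 -1.61, A_51_P169173 -1.24, adjusted p = 0.0183 for both by limma), with weights and slide block (-1.69 and -1.12), and on A_51_P169173 from the scanner's log ratio (-3.00). Leaving out 1 array gave -1.63 to -1.31, -1.16 to -0.94 and, on A_52_P673863, -0.58 to -0.43. The brightness difference ranged from -131.1 to -85.2 kilo-units. Cdkn1b and 21 genes chosen with their values known, mostly for passing or for groups that did not overlap, kept their direction in each setting run (up to 27). Named list members did not all do so: Klrd1, Rag1, Cd4 and Mki67 changed sign without the dim arrays. The median of all genes was 0.14, 0.02 from Cy5 alone and -0.55 in the deposited table, and differences of that size say little. Signal near background limits Tas2r107, Defb7, Prol1, Olfr586 and AK050066. The causes were not tested.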
